A study of Rattus norvegicus with 12 samples.

Results

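Kidney gene expression of obese Zucker rats was compared with that of lean Zucker rats while both ate chow with rosiglitazone. The comparison rests on 6 arrays of a series of 12, chosen by their titles: 3 of obese rats on rosiglitazone and 3 of lean rats on rosiglitazone, 1 array per rat. The other 6 arrays hold 3 obese and 3 lean rats on the same ground chow without the drug (control diet). All rats were male, the dose was 3 mg/kg body weight, and feeding lasted 12 weeks with free access to food and water. The labels call the animals a model for diabetes, and the sources used here do not give their age, the genotype of the lean rats or the part of the kidney taken. Both groups ate the drug, so the comparison is between body types and holds no untreated rat. The features measured are 31042 Affymetrix probe sets without the control prefix, of which 18625 passed a filter on dim signals and were tested.

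Obese Zucker rats carry a missense mutation in the gene of the leptin receptor, which blunts the satiety signal of the fat cell hormone leptin. They overeat and become fat and insulin resistant, and their kidneys develop protein leakage and scarring with age. Rosiglitazone activates PPARgamma, a nuclear receptor that pairs with RXR and switches on genes of fat storage and fatty acid handling. Fat cells hold most PPARgamma, and in the kidney the receptor is found mainly in the collecting duct. The proximal tubule takes back most of the filtered sugar, amino acids, phosphate and salt, burns fatty acids for energy, and secretes organic anions and cations.

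As deposited, the arrays already lay at one level, which points to an earlier scaling, with trimmed means of 500.12 to 500.15 and median signals of 204 to 238.6. Kidney markers were bright on all 12 arrays, from the thick limb gene Umod and the collecting duct gene Aqp2 to the proximal tubule genes Kap and Lrp2. The podocyte gene Nphs1 was dim. Lean rosiglitazone 3 stood somewhat apart, with a median correlation of 0.953 with the other arrays of its group, against 0.96 to 0.977 for the others. Its signal for the bacterial control gene dap reached 116, against at most 37.5 elsewhere. The highest signal of the Bacillus control genes dap, lys, phe, thr and trp on any array was 124, used below as a background bound. The signal of cre, a control added at hybridization, parted the arrays into a higher class of 5 and a lower class of 7. All 3 obese rosiglitazone arrays and lean rosiglitazone 3 were in the lower class, with 14809 to 16658, and lean rosiglitazone 1 and 2 were in the higher class, with 21892 and 20691. The class therefore moved with body type on rosiglitazone. On control diet it leaned the same way, with 20047, 14412 and 15506 in obese rats and 21951, 19916 and 15069 in lean rats. Obese 1, lean 1 and lean 2 of that diet were in the higher class. Gapdh gave 3' over 5' signal ratios, a sign of RNA integrity, of 1.28, 1.07 and 1.09 in obese rats and 1.14, 1.15 and 1.22 in lean rats.

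A difference is given on the log2 scale after adding 16 to each signal, as obese minus lean, so that a difference of 1 is 2-fold, with its standard error (SE). The p-values come from limma's moderated test across all 18625 probe sets, adjusted by the Benjamini-Hochberg method, and a probe set passed at an adjusted p under 0.05. On rosiglitazone 932 probe sets passed, which is 5.0% of those tested. Those of them that carry 1 gene name stand for 701 genes, and the others have no name or several here. Of the 932, 448 (2.41%) were higher and 484 (2.60%) were lower in obese kidneys. Differences of at least 2-fold were found for 81 of the higher and 73 of the lower probe sets. At an unadjusted p under 0.05 in limma there were 3677 of the 18625 probe sets. In all 932 the 3 obese signals did not overlap the 3 lean ones. Over all tested probe sets 23.3% did not overlap, 13% with obese rats higher and 10.4% with obese rats lower. The count depended on every rat: without 1 array it was 474 (without obese 2) to 809 (without lean 3). With each array centred on its median 493 probe sets passed, of which 488 were among the 932.

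The balance of the calls changed with brightness. In the brightest 10% of the probe sets, 1863 in number with mean signals from 2170 up, the median log2 difference was −0.083, 11.4% were lower in obese kidneys and 2.31% were higher. In the next 10% the median was 0.024, with 3.87% lower and 4.62% higher. After quantile normalization, which gives every array the same distribution, these medians were 0.0094 and 0.0091. Within the lower cre class, 3 obese arrays against 1 lean array, they were −0.016 and 0.05. The part of the scaling and of the cre class in each result below was not tested.

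The same probe sets were looked up in the 6 rats on control diet, which share no array with the comparison on the drug. Both comparisons come from the same fit, which shares its estimate of the spread between them. A probe set with a small spread passes more easily on both diets, so the shared calls are not independent. Of the 932 probe sets, 907 (97.3%) differed in the same direction between obese and lean rats on control diet, where 68.6% of all tested probe sets did. On that diet 725 of them (77.8%) did not overlap between the groups in that direction, against 25.5% of all probe sets in either direction. Of the 932, 435 passed in the same direction on control diet, where 882 (4.74%) passed in all. The probe sets that passed on both diets were 46.8% of the calls on the drug and 49.4% of those on control diet. The median size of the 932 differences was 0.625 on rosiglitazone and 0.454, signed in the same direction, on control diet. Probe sets chosen because they passed in one comparison tend to be smaller in another, so these medians do not show that the drug widened the differences.

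**Figure D1:**
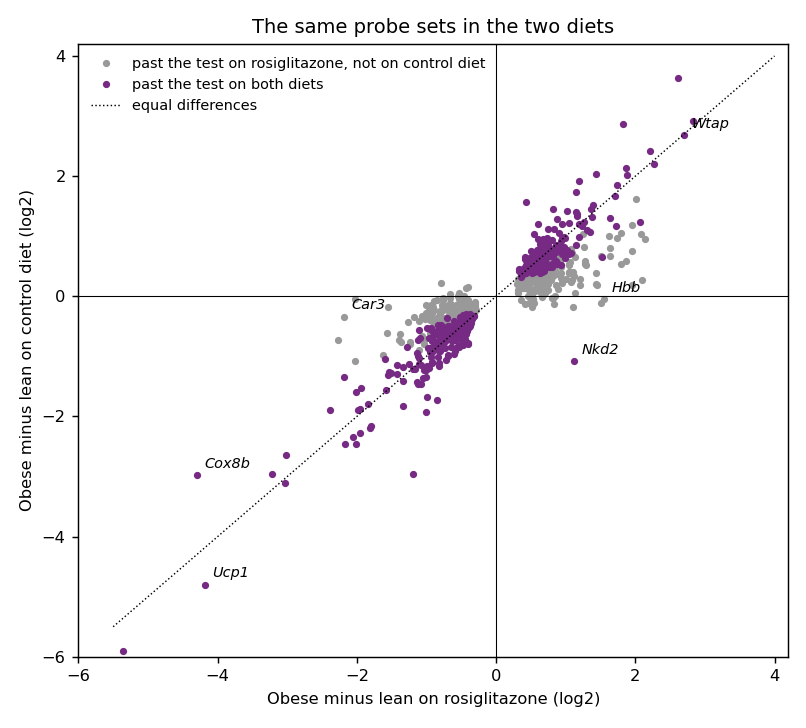
Obese minus lean differences (log2) of the 932 probe sets that passed on rosiglitazone, on rosiglitazone (horizontal axis) and on control diet (vertical axis); 1 point per probe set, with purple points past the test on both diets and a dotted line for equal differences. Nearly all points, 907, lie in the lower left and upper right of the plot, and Nkd2 is the 1 probe set past the test on both diets with opposite directions.

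The difference itself was tested between the diets as an interaction in the same fit, and 0 probe sets passed in limma, with 802 at an unadjusted p under 0.05. Nkd2, an inhibitor of Wnt signalling, was the 1 probe set that passed on both diets in opposite directions. Nkd2 signals were 859, 565 and 910.3 in obese rats, against 460.0, 381 and 228 in lean rats. On control diet it averaged 246 ± 21.8 in obese rats and 540.2 ± 98.2 in lean rats (SD, n = 3 each). Its log2 difference was 1.12 on rosiglitazone and −1.07 on control diet, and the interaction had an adjusted p of 0.124. Inmt, a methyltransferase gene, came nearest to passing the interaction. The signal of Inmt was 6747, 7573 and 7049 in obese rats, against 5189, 5403 and 5309 in lean rats. The groups did not overlap (log2 0.42, SE 0.11, adjusted p = 0.0382), and on control diet the difference was 1.57 (interaction adjusted p = 0.0546). Ace, which makes angiotensin II, had signals of 441, 361 and 420.0 in obese rats, against 479, 502 and 456 in lean rats. It did not pass on the drug (log2 −0.23, SE 0.13, adjusted p = 0.347), and on control diet the difference was −1.32 (interaction adjusted p = 0.173). Fasn, fatty acid synthase, did not pass on the drug (log2 0.57, SE 0.27, adjusted p = 0.258), and its difference was −1.69 on control diet (interaction adjusted p = 0.235). Slc22a13, an anion transporter described below, was lower on the drug, with a difference of −1.19. On control diet it was at least 5.8-fold lower, with the obese mean under the background bound (interaction adjusted p = 0.344). Ces1d, a carboxylesterase, did not pass on the drug (log2 −0.15, SE 0.18, adjusted p = 0.719), with 1.17 on control diet (interaction adjusted p = 0.344). These genes were chosen after their values were seen, for the smallest unadjusted p of that test among the named genes of the array. When arrays were left out singly, calls were lost without obese 1 or obese 3 for Nkd2 (adjusted p up to 0.0684), and any of the 6 for Inmt (adjusted p up to 0.128).

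Genes of fat cells, of brown fat above all, were among those with the largest differences. Cox8b, a respiratory chain subunit of brown fat and muscle, Ucp1, the uncoupling protein that lets brown fat make heat, and Cidea, a lipid droplet protein of brown fat, were lower in obese kidneys. Cox8b signals were 31.6, 49.3 and 90.8 in obese rats, against 1028, 2179.5 and 1079.6 in lean rats. The obese mean lay under the background bound of 124, so the signals give only a lower limit of the fold, with each lower signal counted at the bound (log2 −4.30, SE 0.41, adjusted p = 9.74e-05, at least 10.9-fold lower). Other genes with 1 group under that bound are given in the same way. The signal of Ucp1 was 79.1, 132 and 219.8 in obese rats, against 2357, 5435 and 1535 in lean rats. The highest obese rat lay far below the lowest lean rat (log2 −4.19, SE 0.46, adjusted p = 0.000364). Cidea signals were 328, 464 and 480.1 in obese rats, against 1345, 3069.9 and 1291 in lean rats. Here too the groups were far apart (log2 −2.02, SE 0.29, adjusted p = 0.00209). On control diet the obese means of Cox8b and Ucp1 lay under the bound, and these genes were at least 2.73-fold and 6.21-fold lower, while the difference of Cidea was −1.08.

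These genes sit on different chromosomes, and the 250 bases before their starts are shown because these are the brown fat genes described above. The sequences are those of RefSeq on the GRCr8 assembly, given on the gene's strand from 5′ to 3′, with TATAAA motifs in capitals.
Cox8b (chr1:205408274-205408523, minus strand): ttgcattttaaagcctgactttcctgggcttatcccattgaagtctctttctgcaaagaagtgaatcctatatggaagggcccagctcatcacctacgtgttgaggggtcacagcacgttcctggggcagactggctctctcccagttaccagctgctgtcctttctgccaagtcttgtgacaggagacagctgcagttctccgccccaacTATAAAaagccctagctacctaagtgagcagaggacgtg
Ucp1 (chr19:41721422-41721671, minus strand): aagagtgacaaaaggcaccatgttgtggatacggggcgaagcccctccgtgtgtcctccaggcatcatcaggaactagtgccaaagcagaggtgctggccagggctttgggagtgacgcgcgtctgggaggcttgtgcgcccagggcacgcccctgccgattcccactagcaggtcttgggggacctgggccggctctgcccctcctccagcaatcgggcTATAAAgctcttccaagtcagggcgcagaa
Cidea (chr18:63164567-63164816, plus strand): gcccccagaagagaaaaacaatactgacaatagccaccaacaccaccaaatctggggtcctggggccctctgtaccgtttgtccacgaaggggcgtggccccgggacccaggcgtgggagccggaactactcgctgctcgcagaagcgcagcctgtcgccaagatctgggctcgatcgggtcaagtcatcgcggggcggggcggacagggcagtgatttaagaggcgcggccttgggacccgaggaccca
The motif TATAAA, searched on both strands, starts 39 bases before the start of Cox8b and 30 bases before that of Ucp1, and was not found in the window of Cidea. It is in 13.1% of the 27457 upstream windows of the same length. The letters AGGTCA, the core that PPAR and RXR each bind, were also searched on both strands. It is in 0 of these 3 windows and in 13.7% of all windows, which says only that these letters are not in these 250 bases.

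The white fat markers showed the same direction less evenly. Of 20 tested adipocyte markers 5 were lower and 1 was higher in obese kidneys, with a median log2 difference of −0.42. Over all 10524 genes, each by its brightest probe set, 3.15% were lower and 2.88% were higher and the median was 0.029. Car3, carbonic anhydrase of fat and muscle, stood out for its even obese values. The signal of Car3 was 749, 760.3 and 757 in obese rats, against 3587, 4834 and 2433 in lean rats. The gap was wide (log2 −2.18, SE 0.32, adjusted p = 0.00274), and on control diet the difference was −0.34. Cfd, the adipsin gene, had signals of 93.4, 85.6 and 128 in obese rats, against 427, 484 and 401 in lean rats (log2 −1.95, SE 0.32, adjusted p = 0.00375, at least 3.49-fold lower). Plin1, which coats the fat droplet, had signals of 353, 299.9 and 492 in obese rats, against 799, 1696 and 1095 in lean rats (log2 −1.57, SE 0.25, adjusted p = 0.00367), and a dimmer probe set of it did not pass (−0.60, adjusted p = 0.320). Aqp7, a glycerol channel of fat cells and proximal tubule, was lower (log2 −0.73, SE 0.11, adjusted p = 0.00242), and so was Gpd1 (log2 −0.58, SE 0.13, adjusted p = 0.0209), which makes glycerol phosphate for fat storage. Adipoq, which encodes adiponectin, a hormone from fat cells, had signals of 583, 536 and 639.5 in obese rats, against 1021, 1110.5 and 710.5 in lean rats, without overlap, but did not pass (log2 −0.66, SE 0.18, adjusted p = 0.0511). It passed without lean 3 (adjusted p = 0.0148). Fabp4, a PPARgamma target that carries fatty acids inside fat cells, overlapped between the groups. Fabp4 signals were 4111, 2862 and 2776 in obese rats, against 4343, 7256 and 3864 in lean rats. It did not pass on the drug (log2 −0.63, SE 0.37, adjusted p = 0.378), and the difference on control diet was −1.85. Lpl, lipoprotein lipase, was the 1 fat marker that passed as higher, with signals of 4316, 4671 and 3887 in obese rats, against 1969, 3567 and 2507 in lean rats (log2 0.71, SE 0.19, adjusted p = 0.0436). The fatty acid synthesis genes Scd and Fasn, also on this list, lay higher in every obese rat than in any lean rat but did not pass. Scd, which encodes stearoyl-CoA desaturase, had signals of 1184, 1252 and 1492 in obese rats, against 453, 582 and 163 in lean rats (log2 1.84, SE 0.88, adjusted p = 0.28), and Fasn had signals of 2577, 2067 and 2055 in obese rats, against 1230.1, 1829 and 1469.9 in lean rats. Calls were lost without obese 1, obese 3, lean 1 or lean 2 for Gpd1 (adjusted p up to 0.0836), and obese 1, obese 2, obese 3, lean 1 or lean 3 for Lpl (adjusted p up to 0.137).

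Lower signals in such tissue samples can come from fewer cells of a type or from less RNA per cell, which cannot be told apart. The summed signal of the 20 adipocyte markers was 33320 to 36430 in obese and 37520 to 52660 in lean rats on rosiglitazone, and that of the 15 brown fat markers was 17430 to 19500 in obese and 24560 to 35230 in lean rats. Of the brown fat markers 4 were lower and 0 higher (Cox8b, Ucp1, Cidea and the fatty acid transporter Slc27a2, which the proximal tubule also expresses), with a median of −0.28. The adipocyte hormone Lep lay below the filter. The amount of fat left on the kidneys is not known here, and its part in these results was not tested. Of 28 tested PPARgamma targets, 7 were lower and 2 higher (median −0.30). The lower ones were mostly fat genes named above, and the higher ones were Lpl and the mitochondrial carrier Ucp2 (log2 0.59, SE 0.14, adjusted p = 0.023). Pparg itself had signals of 258, 227 and 257 in obese rats, against 231, 317 and 197 in lean rats (log2 0.02, SE 0.22, adjusted p = 0.975), so obese and lean signals overlapped. Cd36, a fatty acid uptake receptor and PPARgamma target, also overlapped, with signals of 746, 941 and 776 in obese rats, against 1030.3, 1034 and 718 in lean rats (log2 −0.16, SE 0.21, adjusted p = 0.734). Calls no longer passed without obese 1, obese 2, lean 1 or lean 2 for Ucp2 (adjusted p up to 0.0937).

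**Figure D2:**
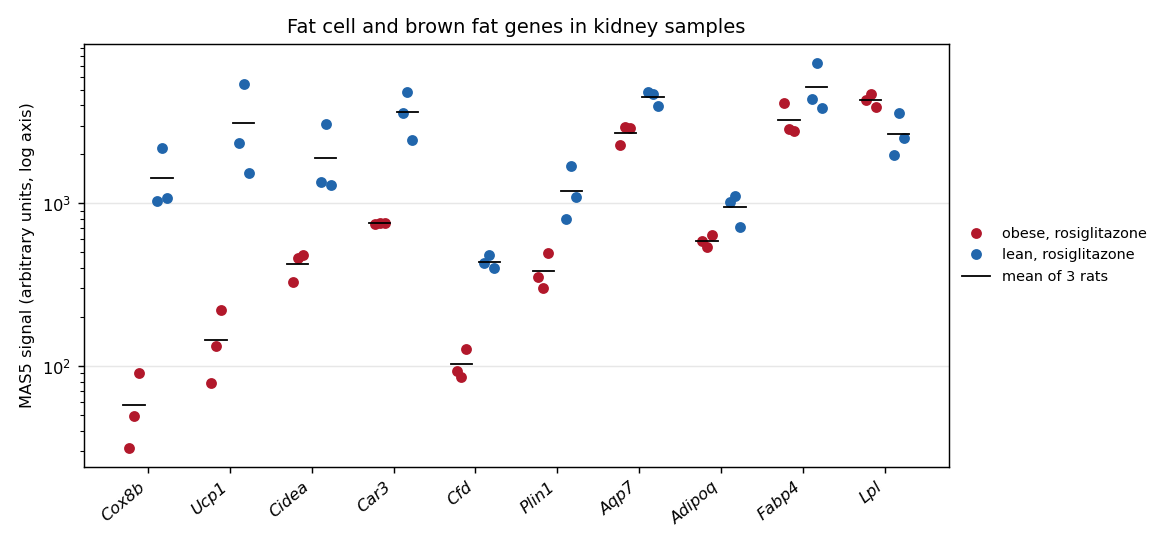
MAS5 signals (log axis) of 10 fat cell genes; each point is 1 rat and each bar a mean of 3. Cox8b, Ucp1 and Cidea are lower in all obese rats, Fabp4 overlaps, and Lpl is higher in obese rats.

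Transporters of the proximal tubule were the list with the largest share of lower genes among those with 10 or more tested members. Of 33 tested, 13 were lower in obese kidneys and 0 were higher, with a median of −0.44. Organic anion and cation carriers of the Slc22 family, which move drugs and waste products, were among them. Slc22a7, an organic anion transporter, had signals of 493, 487 and 574 in obese rats, against 1349.9, 1044 and 1052 in lean rats (log2 −1.12, SE 0.14, adjusted p = 0.000469). Slc22a6, the main renal uptake transporter for organic anions, had signals of 1172, 1613 and 1409 in obese rats, against 2533, 2126 and 2349 in lean rats (log2 −0.74, SE 0.13, adjusted p = 0.00436), with −0.18 on control diet. Slc22a13 had signals of 354, 459.9 and 335 in obese rats, against 899.7, 1172 and 659.7 in lean rats (log2 −1.19, SE 0.24, adjusted p = 0.0115), and Slc22a2, the organic cation transporter, was lower (log2 −0.49, SE 0.13, adjusted p = 0.0377). In none of these transporters did an obese rat reach a lean one. Of other anion carriers, Slco1a1, of the organic anion polypeptide family, had signals of 3044, 2214 and 3756 in obese rats, against 5984, 7481 and 5025 in lean rats (log2 −1.05, SE 0.17, adjusted p = 0.00414). Slc17a1, a phosphate and urate transporter, had signals of 1314, 1567 and 1505 in obese rats, against 2885, 2537 and 2287 in lean rats (log2 −0.80, SE 0.13, adjusted p = 0.00282), and its neighbour in the family Slc17a3 was lower (log2 −0.48, SE 0.12, adjusted p = 0.0335). Slc15a2, which takes up small peptides, had signals of 3877, 3582 and 3911 in obese rats, against 5678, 5558 and 5518 in lean rats (log2 −0.56, SE 0.08, adjusted p = 0.00154). Further calls were lost without obese 2, obese 3, lean 1, lean 2 or lean 3 for Slc22a2 (adjusted p up to 0.142), and obese 1, obese 2, obese 3, lean 1 or lean 3 for Slc17a3 (adjusted p up to 0.124).

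Carriers of nutrients, salts and water were lower as well. Slc34a1, the sodium phosphate cotransporter of the proximal tubule, was lower (log2 −0.44, SE 0.09, adjusted p = 0.0131), and so was Slc3a1 (log2 −0.44, SE 0.10, adjusted p = 0.0169), the subunit for cystine uptake. After quantile normalization neither passed, and the difference of Slc3a1 was −0.017 (adjusted p = 0.861). Slc13a3, a dicarboxylate transporter, had signals of 3255, 3938 and 4519 in obese rats, against 7295, 5834 and 6128 in lean rats (log2 −0.72, SE 0.13, adjusted p = 0.00525). The water channel Aqp1 (log2 −0.43, SE 0.10, adjusted p = 0.0227) and the fatty acid transporter Slc27a2 (log2 −0.53, SE 0.11, adjusted p = 0.0176) were lower. Slc5a2, which encodes the glucose transporter SGLT2, varied widely in both groups. The signal of Slc5a2 was 165, 1134 and 829 in obese rats, against 57.6, 53.8 and 667 in lean rats. Lean 1 and lean 2 were under the background bound, while lean 3 lay among the obese rats, and the difference did not pass (log2 1.88, SE 1.05, adjusted p = 0.361). On control diet, where 3.09% of all genes were lower and 2.42% were higher, 8 of the 33 transporters were lower and 1 was higher, with a median of −0.19. Further calls ended without obese 1, obese 2 or lean 1 for Slc34a1 (adjusted p up to 0.0619), obese 2, obese 3, lean 1 or lean 2 for Slc3a1 (adjusted p up to 0.0709), and obese 2, obese 3, lean 1 or lean 2 for Aqp1 (adjusted p up to 0.0818). Leave-one-out fits ended calls without obese 1, obese 2, lean 1 or lean 2 for Slc27a2 (adjusted p up to 0.0718).

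**Figure D3:**
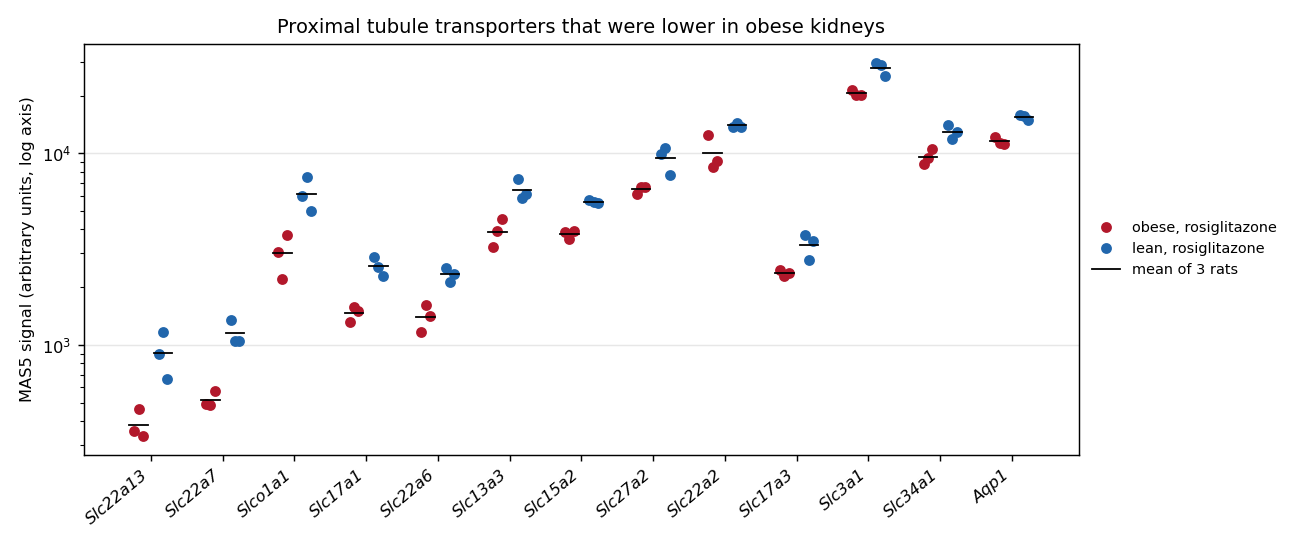
MAS5 signals (log axis) of the 13 proximal tubule transporters that were lower in obese kidneys, ordered from the largest difference; each point is 1 rat and each bar a mean of 3. The points of obese rats lie below those of lean rats for every transporter shown, with the largest log2 differences for Slc22a13 and Slc22a7.

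Enzymes and receptors of the proximal tubule moved the same way, with 9 of 26 lower, 0 higher and a median of −0.35. Cubn, cubilin, and Amn, amnionless, form the receptor that takes up filtered proteins. Amn had signals of 3122, 2632 and 3136 in obese rats, against 5004, 5054 and 4602 in lean rats (log2 −0.72, SE 0.09, adjusted p = 0.000434) and Cubn had signals of 3837, 4039 and 3801 in obese rats, against 5614, 5569.7 and 5539.8 in lean rats (log2 −0.52, SE 0.09, adjusted p = 0.00606). Lrp2, megalin, their partner, was at −0.40 and did not pass (adjusted p = 0.0837). The brush border peptidase gene Anpep had signals of 4183, 4226 and 4498 in obese rats, against 8021, 6741 and 6535 in lean rats (log2 −0.72, SE 0.09, adjusted p = 0.000469), and Napsa, an aspartic protease, was lower (log2 −0.60, SE 0.09, adjusted p = 0.00264). Kap, the androgen-regulated kidney protein, was lower (log2 −0.49, SE 0.10, adjusted p = 0.0133), but after quantile normalization its difference was 0.014 (adjusted p = 0.905). Miox, the enzyme that opens myo-inositol, was lower (log2 −0.57, SE 0.12, adjusted p = 0.0134). The further lower members were the aminoacylases Acy1 (log2 −0.36, SE 0.09, adjusted p = 0.0327) and Acy3 (log2 −0.52, SE 0.10, adjusted p = 0.0104) and the brush border protease Mep1b (log2 −0.61, SE 0.14, adjusted p = 0.0187). These genes are among the brightest on the array. Of the 26, 24 lay in the brightest 10%, with 9 lower, and of the 33 transporters 13 lay there, with 10 lower, and 20 lay outside it, with 3 lower. With each array centred on its median the lower genes were 7 transporters and 3 enzymes and receptors, within the lower cre class 4 and 5, and after quantile normalization 9 and 7. With 1 array fewer, calls ended without obese 2 or lean 1 for Kap (adjusted p up to 0.0598), lean 1 for Miox (adjusted p = 0.0543), and obese 1, obese 2, obese 3, lean 1 or lean 2 for Acy1 (adjusted p up to 0.112). Not every call stood: calls were lost without obese 1, obese 2, obese 3, lean 1 or lean 2 for Mep1b (adjusted p up to 0.0722).

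Enzymes of fatty acid oxidation, which feeds the proximal tubule, were lower in obese kidneys as well. Of 30 tested, 7 were lower and 0 were higher, with a median of −0.27. Acadl, which starts the breakdown of long chains, had signals of 3096, 2982 and 3334 in obese rats, against 4399, 4642 and 4545 in lean rats (log2 −0.53, SE 0.08, adjusted p = 0.00293), and on control diet the difference was −0.17. Acadm, its counterpart for medium chains, had signals of 9266, 9343 and 9973 in obese rats, against 13444, 14600.0 and 11564 in lean rats (log2 −0.46, SE 0.10, adjusted p = 0.0135). The auxiliary enzymes of unsaturated fatty acids followed. Eci2 had signals of 1869, 2351 and 1850.4 in obese rats, against 3462, 2921 and 2698 in lean rats (log2 −0.58, SE 0.11, adjusted p = 0.0104) and Decr1 had signals of 2888, 3194 and 3179 in obese rats, against 4057, 4170.5 and 4282 in lean rats (log2 −0.43, SE 0.09, adjusted p = 0.0126). The peroxisomal enzyme Ehhadh was lower (log2 −0.65, SE 0.14, adjusted p = 0.014), and so were the carnitine carrier Slc25a20 (log2 −0.41, SE 0.11, adjusted p = 0.0484) and another auxiliary enzyme, Ech1 (log2 −0.31, SE 0.08, adjusted p = 0.0486). On control diet 1 of the 30 was lower and 0 were higher, with a median of −0.026. The difference between diets was not past the test for any of them. Of these, 15 lay in the brightest 10%, with 5 lower. With each array centred on its median 2 were lower, as within the lower cre class. Among single omissions, calls ended without obese 1, obese 2, lean 1 or lean 2 for Acadm (adjusted p up to 0.0538), obese 1 for Decr1 (adjusted p = 0.0538), and obese 1, obese 3 or lean 1 for Ehhadh (adjusted p up to 0.0634). With arrays left out 1 at a time, calls ended without obese 1, obese 2, obese 3, lean 1 or lean 2 for Slc25a20 (adjusted p up to 0.167), and any of the 6 for Ech1 (adjusted p up to 0.172).

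Genes of amino acid and urea metabolism leaned the same way, while 1 respiratory chain gene passed. Of 30 genes of amino acid and urea metabolism 6 were lower and 0 higher (median −0.22). Oat, ornithine aminotransferase, had signals of 9336, 10686 and 9895 in obese rats, against 16166, 16137 and 13145 in lean rats (log2 −0.60, SE 0.13, adjusted p = 0.0191), and Glud1, glutamate dehydrogenase, had signals of 4876, 5848 and 5819 in obese rats, against 7919, 8159 and 6892 in lean rats (log2 −0.47, SE 0.10, adjusted p = 0.0126). A second probe set of Glud1 did not pass (−0.19, adjusted p = 0.192). Fah, an enzyme of tyrosine breakdown, was lower (log2 −0.43, SE 0.10, adjusted p = 0.0191), as was Hgd (log2 −0.53, SE 0.13, adjusted p = 0.0307) of the same pathway. The others were the mitochondrial arginase Arg2 (log2 −0.47, SE 0.12, adjusted p = 0.0327) and the branched chain amino acid enzyme Bckdhb (log2 −0.31, SE 0.08, adjusted p = 0.0323). The count was not stable: 2 were lower with the cre class as a covariate, 1 within its lower class and 0 with each array centred on its median. Of 52 respiratory chain genes 1 was lower (Ndufv2, log2 −0.33, SE 0.08, adjusted p = 0.0351), against 3.15% of all genes. Of the 52, 48 had a log2 difference below 0, with a median of −0.17. That median was −0.0085 after quantile normalization, −0.065 with the cre class as a covariate and −0.038 within its lower class, with 0 genes past limma's test in each. Without lean 3, 6 were lower. All but 4 of the 52 lay in the brightest 10%, where 11.4% of all probe sets were lower and the median was −0.083. When arrays were left out singly, calls were lost without obese 1, obese 3, lean 1 or lean 2 for Oat (adjusted p up to 0.0765), obese 1 or lean 1 for Glud1 (adjusted p up to 0.0558), and obese 2, obese 3, lean 1 or lean 2 for Fah (adjusted p up to 0.0872). Calls were lost without any of the 6 for Hgd (adjusted p up to 0.099), obese 1, obese 2, obese 3, lean 1 or lean 2 for Arg2 (adjusted p up to 0.114), and obese 1, obese 2, obese 3, lean 1 or lean 2 for Bckdhb (adjusted p up to 0.105). Calls no longer passed without obese 1, obese 2, obese 3, lean 1 or lean 2 for Ndufv2 (adjusted p up to 0.131).

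Fatty acid synthesis had 4 of 24 genes lower and 0 higher (median −0.20), and the lower ones all differed little. Elovl5, an elongase of polyunsaturated fatty acids, had signals of 2501, 2555 and 2169.7 in obese rats, against 3725, 3493 and 2913 in lean rats (log2 −0.48, SE 0.10, adjusted p = 0.0136), and a second probe set did not pass (−0.33, adjusted p = 0.320). Me1 (log2 −0.48, SE 0.11, adjusted p = 0.0254), which encodes malic enzyme, the elongase Elovl1 (log2 −0.31, SE 0.07, adjusted p = 0.0309) and the lipid droplet enzyme Pnpla3 (log2 −0.59, SE 0.16, adjusted p = 0.0491) were lower. Dimmer probe sets of Pnpla3 did not pass (−0.43, adjusted p = 0.189, and −0.29, adjusted p = 0.596). Cholesterol synthesis had 0 of 19 genes past limma's test, with 3 at an unadjusted p under 0.05 and a median of −0.17. Further calls were lost without obese 3 or lean 1 for Elovl5 (adjusted p up to 0.0639), obese 1, obese 2, lean 1 or lean 2 for Me1 (adjusted p up to 0.0983), and any of the 6 for Elovl1 (adjusted p up to 0.106). Further calls ended without obese 1, obese 2, obese 3, lean 1 or lean 2 for Pnpla3 (adjusted p up to 0.153).

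In the distal nephron, genes of sodium and water handling leaned higher in obese kidneys. Of 25 tested, 3 were higher and 2 lower, with a median of 0.31 and 21 differences above 0. Sgk1, the aldosterone-induced kinase that keeps sodium channels in the membrane, showed the clearest gap. Sgk1 signals were 7117, 6505 and 6302 in obese rats, against 3774, 3301 and 2546 in lean rats. Every obese rat lay well above the highest lean rat (log2 1.06, SE 0.14, adjusted p = 0.000833), and on control diet the difference was 0.40. Aqp3, a water channel of the basal membrane of the collecting duct, had signals of 5942, 4937 and 4259.6 in obese rats, against 2421, 3639 and 2934 in lean rats (log2 0.75, SE 0.18, adjusted p = 0.0263). Aqp4, another channel of that membrane, had signals of 3624, 2406 and 1976 in obese rats, against 1368, 1739 and 1434 in lean rats (log2 0.77, SE 0.19, adjusted p = 0.0319). A second probe set of Aqp4 did not pass (0.24, adjusted p = 0.318). Aqp2, the luminal water channel, overlapped, with signals of 13230.0, 12201 and 11526 in obese rats, against 9919.5, 12940.0 and 10872 in lean rats (log2 0.14, SE 0.11, adjusted p = 0.52). The sodium channel subunit genes did not pass. They differed by 0.46 for Scnn1a (adjusted p = 0.0551, and 0.0359 without lean 3), 0.29 for Scnn1b (adjusted p = 0.251) and 0.21 for Scnn1g (adjusted p = 0.612). Prss8, a protease that activates the sodium channel, was lower (log2 −0.53, SE 0.14, adjusted p = 0.0388). Atp1b1, the beta subunit of the sodium pump, was lower (log2 −0.37, SE 0.08, adjusted p = 0.0129), but its adjusted p was 0.920 after quantile normalization. A dimmer probe set of it gave −0.33 (adjusted p = 0.0571). Of the 25 genes, 1 was higher and 0 lower with each array centred on its median, where Aqp3 and Aqp4 lost their calls. With the cre class as a covariate 4 were higher and 1 lower, as after quantile normalization. Leave-one-out fits ended calls without obese 1, obese 2, lean 1 or lean 3 for Aqp3 (adjusted p up to 0.108), obese 1, obese 2, lean 1 or lean 3 for Aqp4 (adjusted p up to 0.1), and obese 1, obese 3, lean 1, lean 2 or lean 3 for Prss8 (adjusted p up to 0.152). With 1 array fewer, calls ended without obese 2 or lean 1 for Atp1b1 (adjusted p up to 0.0591).

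Of 12 genes of the renin angiotensin system 2 were lower and 0 were higher (median 0.017). Agt, angiotensinogen, the precursor of the angiotensins, had nearly equal signals within lean rats. The signal of Agt was 804, 642 and 670.2 in obese rats, against 1366, 1364 and 1358 in lean rats. All obese rats lay below them (log2 −0.94, SE 0.11, adjusted p = 0.000372), and on control diet the difference was −0.15 (interaction adjusted p = 0.398). Anpep, described above, was the other lower gene.

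Markers of tubular injury had 5 of 24 members higher and 2 lower, with a median of 0.34. Pigr, the receptor that carries immunoglobulin A across epithelia, had signals of 4479, 5157 and 3429 in obese rats, against 2728, 2246 and 1905 in lean rats (log2 0.92, SE 0.19, adjusted p = 0.0149). Timp1, an inhibitor of matrix proteases, had signals of 320.4, 273 and 333 in obese rats, against 176, 119.7 and 27.0 in lean rats (log2 1.64, SE 0.40, adjusted p = 0.0321, at least 2.21-fold higher). Lgals3, galectin of macrophages and injured tubules, was higher (log2 0.85, SE 0.20, adjusted p = 0.0287). The keratin Krt18 (log2 0.45, SE 0.11, adjusted p = 0.0253) and Cp (log2 0.74, SE 0.20, adjusted p = 0.0493), which encodes ceruloplasmin, were higher too. Krt19, another keratin, went the other way, with signals of 602, 363 and 489 in obese rats, against 1479.6, 1769.8 and 1154 in lean rats (log2 −1.57, SE 0.23, adjusted p = 0.00215), as did Tff3, a trefoil peptide, with signals of 16857, 14298 and 17980.0 in obese rats, against 28138, 26936 and 23129 in lean rats (log2 −0.67, SE 0.11, adjusted p = 0.00312, and adjusted p = 0.148 after quantile normalization). Havcr1, the gene of the kidney injury molecule KIM-1, did not overlap between the groups but did not pass. Havcr1 signals were 233, 325 and 852 in obese rats, against 36.1, 145 and 133 in lean rats. Obese 3 was far above the other obese rats (log2 1.96, SE 0.70, adjusted p = 0.137, at least 3-fold higher with the lean mean under the background bound). Spp1, osteopontin, had signals of 9141, 11788 and 13001 in obese rats, against 8143, 7344 and 6342 in lean rats (log2 0.63, SE 0.19, adjusted p = 0.0841), and it passed with the cre class as a covariate (adjusted p = 0.0119) and after quantile normalization (adjusted p = 0.0182). The higher genes of the list numbered 7 with the cre class as a covariate, 5 after quantile normalization, 2 without lean 3 or within the lower cre class, and 1 with each array centred on its median. Not every call stood: calls were lost without obese 1, obese 2 or lean 3 for Pigr (adjusted p up to 0.0664), obese 1, obese 2 or obese 3 for Timp1 (adjusted p up to 0.0976), and obese 1, obese 2, lean 1 or lean 3 for Lgals3 (adjusted p up to 0.108). Among single omissions, calls ended without obese 2, obese 3, lean 1 or lean 2 for Krt18 (adjusted p up to 0.0928), and obese 1, obese 2, obese 3, lean 2 or lean 3 for Cp (adjusted p up to 0.143).

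Matrix genes had 3 of 34 higher and 1 lower, and 31 of the 34 differences lay above 0 (median 0.16). Ccn1 and Ccn2 encode secreted matrix proteins that respond to TGF beta and to stretch. The signal of Ccn1 was 277, 231 and 283 in obese rats, against 92.5, 87.1 and 81.4 in lean rats. The groups were well apart (log2 1.44, SE 0.23, adjusted p = 0.00336, at least 2.12-fold higher), and on control diet Ccn1 was at least 3.81-fold higher. Ccn2 signals were 3653, 3443 and 3340.5 in obese rats, against 2209.7, 1938 and 1686 in lean rats. All obese rats lay above all lean rats on the drug (log2 0.84, SE 0.13, adjusted p = 0.00246), and the log2 difference on control diet was −0.0011 (adjusted p = 0.998). The test of the difference between diets gave an adjusted p of 0.459. Timp1, described above, was the other higher gene. Tgfbi, a TGF beta induced adhesion protein, was lower, with signals of 2100.0, 2051 and 1875 in obese rats, against 2936, 3162 and 2823 in lean rats (log2 −0.56, SE 0.09, adjusted p = 0.00271).

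Of 33 genes of inflammation and leukocytes 2 were higher and 0 lower (median 0.32, but 0.076 with the cre class as a covariate and 0.13 within its lower class). Over all genes 2.88% were higher and 3.15% lower. Icam1, the adhesion molecule that holds leukocytes, had signals of 696, 510.1 and 606 in obese rats, against 370.2, 155 and 104 in lean rats (log2 1.62, SE 0.33, adjusted p = 0.0137). Tnfrsf1a, a receptor for tumour necrosis factor, had signals of 1277, 1237 and 1172 in obese rats, against 852, 730.4 and 803 in lean rats (log2 0.62, SE 0.16, adjusted p = 0.0386). Lymphocyte markers had 0 of 8 past limma's test, with 2 at an unadjusted p under 0.05, and a summed signal of 1462 to 1971 in obese and 1692 to 2147 in lean rats. With arrays left out 1 at a time, calls ended without obese 1 or lean 2 for Icam1 (adjusted p up to 0.0596), and any of the 6 for Tnfrsf1a (adjusted p up to 0.119).

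Antigen presentation genes were mixed, with 3 of 25 higher and 3 lower. RT1 genes encode the rat's major histocompatibility proteins. They vary between rats and share sequence with each other, so a difference in sequence under the probes and one in the amount of RNA cannot be told apart. RT1-CE16 had signals of 201, 96.7 and 155 in obese rats, against 1446, 1629.9 and 1406 in lean rats (log2 −3.23, SE 0.28, adjusted p = 3.32e-05), and RT1-CE5 had signals of 859, 736 and 740.3 in obese rats, against 320.2, 294 and 262 in lean rats (log2 1.37, SE 0.15, adjusted p = 0.000263). On control diet these differences were −2.95 and 1.45. A dimmer probe set of RT1-CE5 did not pass (0.13, adjusted p = 0.849). RT1-CE12 was lower (log2 −1.11, SE 0.25, adjusted p = 0.023) and RT1-CE10 was higher (log2 0.67, SE 0.16, adjusted p = 0.0302). Of the class II genes, RT1-Bb was higher, with signals of 1539, 1454 and 1333 in obese rats, against 479, 483 and 267 in lean rats (log2 1.82, SE 0.43, adjusted p = 0.0296), while Cd74, the invariant chain that all class II molecules need, was lower, with signals of 3977, 3887 and 3738 in obese rats, against 5956, 5369 and 5469 in lean rats (log2 −0.53, SE 0.10, adjusted p = 0.00877). When arrays were left out singly, calls were lost without obese 1, obese 2, obese 3, lean 2 or lean 3 for RT1-CE12 (adjusted p up to 0.081), obese 2, obese 3, lean 1 or lean 3 for RT1-CE10 (adjusted p up to 0.114), and any of the 6 for RT1-Bb (adjusted p up to 0.104).

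Antioxidant and glutathione genes also moved in both directions, with 4 of 35 higher and 5 lower (median −0.011). Gstm2 and Gstm5, glutathione transferases of the mu class, were higher. Gstm2 had signals of 2111, 3028 and 2969 in obese rats, against 1447, 1497 and 1222 in lean rats (log2 0.94, SE 0.15, adjusted p = 0.00274), and Gstm5 was higher (log2 0.63, SE 0.15, adjusted p = 0.0232). Near-identical members of that class can share probes. Srxn1 (log2 1.14, SE 0.27, adjusted p = 0.0279), which encodes sulfiredoxin, and the glutathione peroxidase Gpx2 (log2 0.82, SE 0.19, adjusted p = 0.0265) were higher. Cyba, a subunit of the NADPH oxidase that makes superoxide, was lower, with signals of 599, 658 and 638 in obese rats, against 1290.3, 1095 and 1040.1 in lean rats (log2 −0.83, SE 0.11, adjusted p = 0.000833). Gstt1 had signals of 998, 1041 and 1129 in obese rats, against 1667, 1546 and 1516 in lean rats (log2 −0.57, SE 0.09, adjusted p = 0.00271). Gclc (log2 −0.74, SE 0.18, adjusted p = 0.0351), which catalyses the first step to glutathione, was lower, and so were the peroxiredoxin Prdx6 (log2 −0.40, SE 0.09, adjusted p = 0.0275) and the superoxide dismutase Sod1 (log2 −0.39, SE 0.10, adjusted p = 0.0391). Calls were lost without obese 2, obese 3, lean 1 or lean 2 for Gstm5 (adjusted p up to 0.0835), obese 1, obese 2 or obese 3 for Srxn1 (adjusted p up to 0.0864), and obese 1, obese 3, lean 1 or lean 2 for Gpx2 (adjusted p up to 0.102). Calls no longer passed without obese 1, obese 2, obese 3, lean 1 or lean 2 for Gclc (adjusted p up to 0.128), obese 1, obese 2, obese 3, lean 1 or lean 3 for Prdx6 (adjusted p up to 0.0845), and obese 1, obese 2, obese 3, lean 1 or lean 2 for Sod1 (adjusted p up to 0.132).

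Among 23 enzymes of steroid and xenobiotic metabolism 2 were higher and 5 lower. The aldo-keto reductase AKR1C3l1 had signals of 2687, 3080.4 and 3362 in obese rats, against 14771, 13406 and 8828 in lean rats (log2 −1.99, SE 0.22, adjusted p = 0.000382), and Akr1c1, of the same family, had signals of 224, 448 and 473 in obese rats, against 1696, 929.7 and 955 in lean rats (log2 −1.62, SE 0.34, adjusted p = 0.0171). Hsd11b1, which activates glucocorticoids, was lower (log2 −0.58, SE 0.12, adjusted p = 0.0156). The cytochrome P450 gene Cyp2d4 (log2 −0.61, SE 0.12, adjusted p = 0.0129) and the sulfotransferase Sult1c2 (log2 −0.68, SE 0.16, adjusted p = 0.0274) were lower. A dimmer probe set of Cyp2d4 did not pass (−0.51, adjusted p = 0.187). Sult1a1, a sulfotransferase, was higher, with signals of 2889.8, 3416 and 2494 in obese rats, against 1202, 2131 and 1351 in lean rats (log2 0.94, SE 0.17, adjusted p = 0.00834). Inmt, described above, was the other higher one. In the list of glucose metabolism and insulin signalling 1 of 30 was lower, near the 3.15% over all genes. That gene was Pik3r1, the regulatory subunit of the kinase that insulin activates. The signal of Pik3r1 was 99.95, 212 and 195 in obese rats, against 592, 799.7 and 735 in lean rats. The highest obese rat lay well below the lowest lean rat (log2 −2.02, SE 0.26, adjusted p = 0.000542), and on control diet the difference was −1.59. Further calls were lost without obese 1 or lean 1 for Akr1c1 (adjusted p up to 0.0638), obese 1, obese 3, lean 1 or lean 2 for Hsd11b1 (adjusted p up to 0.0685), and obese 2 for Cyp2d4 (adjusted p = 0.0577). Further calls ended without obese 2, obese 3, lean 1, lean 2 or lean 3 for Sult1c2 (adjusted p up to 0.105).

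**Figure D4:**
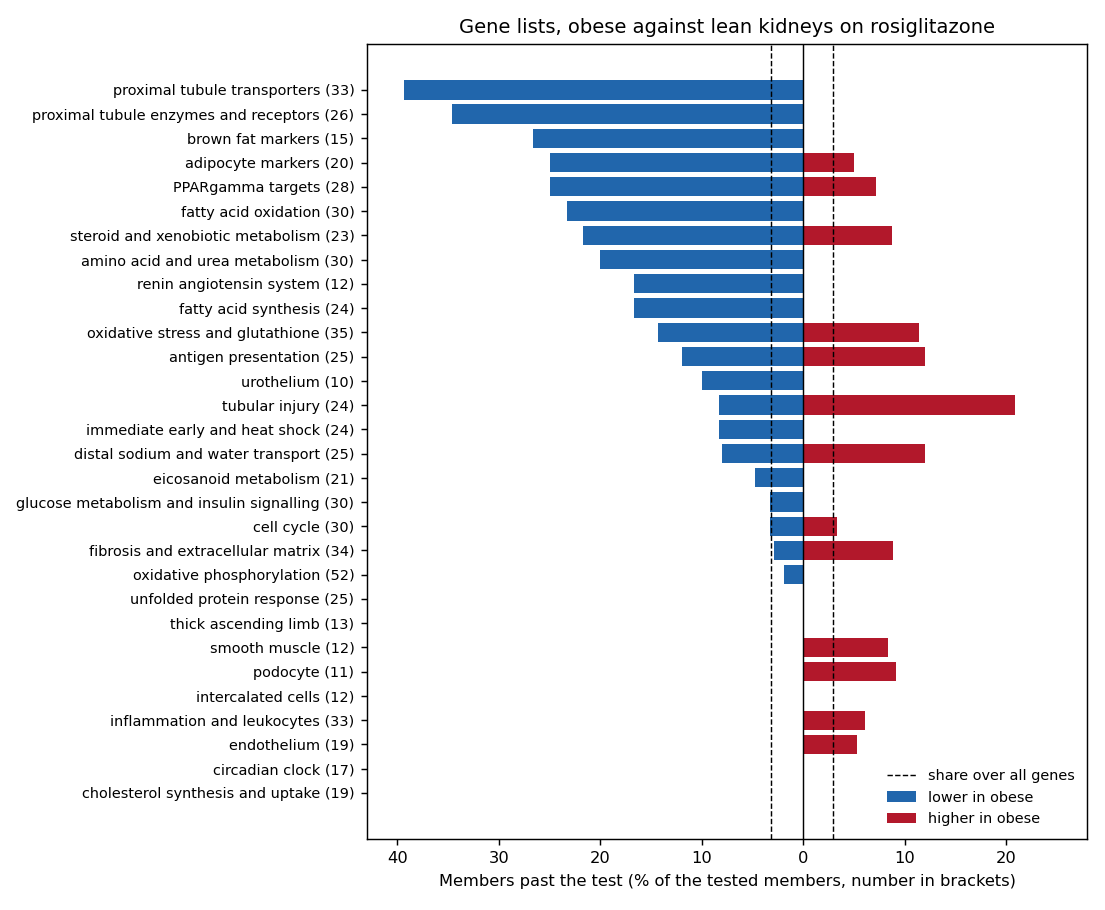
Share of tested genes in each list that passed the test as lower (bars to the left) or higher (bars to the right) in obese kidneys on rosiglitazone, for lists with at least 10 tested genes; dashed lines mark the shares over all 10524 genes, 3.15% lower and 2.88% higher. Proximal tubule lists reach furthest to the left, and tubular injury furthest to the right.

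Transcripts of red blood cells were higher in obese rats on the drug. Hbb signals were 11766, 10536 and 6793 in obese rats, against 3066, 5172 and 2094 in lean rats. Hbb, a beta globin, was higher in each obese rat than in any lean rat (log2 1.55, SE 0.32, adjusted p = 0.0163), and on control diet its difference was −0.05. Hba-a3, an alpha globin, had signals of 2919.5, 2132 and 1726 in obese rats, against 635, 1083 and 494 in lean rats (log2 1.64, SE 0.25, adjusted p = 0.00344), and Alas2, the heme enzyme of red cell precursors, had signals of 967, 806 and 626 in obese rats, against 291, 498 and 254 in lean rats (log2 1.20, SE 0.26, adjusted p = 0.0194). All 3 were above the highest lean rat in every obese rat. Of 5 tested red cell genes 3 were higher, and their summed signal was 10850 to 17820 in obese and 4994 to 8953 in lean rats, against 9261 to 12180 in obese and 8143 to 13010 in lean rats on control diet. The sources used here do not say whether the kidneys were flushed of blood. Without lean 3, 1 of the 5 passed. Leave-one-out fits ended calls without obese 1, obese 2, lean 1 or lean 3 for Hbb (adjusted p up to 0.0715), and obese 1, obese 2, lean 1 or lean 3 for Alas2 (adjusted p up to 0.0814).

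Endothelial genes leaned higher, with 18 of 19 differences above 0, a median of 0.44 and 1 past the test. That gene was Eng, endoglin (log2 0.66, SE 0.18, adjusted p = 0.0472). With the cre class as a covariate the endothelial median was 0.27, with 0 genes past limma's test. After quantile normalization the median was 0.41, and with each array centred on its median it was 0.44, with 0 past the test in both. The summed endothelial signal was 17540 to 18680 in obese and 13010 to 13990 in lean rats on the drug, and 10920 to 17660 in obese and 13560 to 14800 in lean rats on control diet. Podocyte genes had 1 of 11 higher (Dpysl2, log2 0.54, SE 0.14, adjusted p = 0.0442, list median 0.32) and smooth muscle genes 1 of 12 (Tpm2, log2 0.68, SE 0.14, adjusted p = 0.0154, list median 0.24). The share over all genes was 2.88% higher. With the cre class as a covariate the podocyte median was 0.04, with 0 genes past limma's test, and within the lower class it was 0.24. Nphs1 had signals of 203, 372 and 294 in obese rats, against 213, 136 and 232 in lean rats (log2 0.54, SE 0.40, adjusted p = 0.512). With 1 array fewer, calls ended without any of the 6 for Eng (adjusted p up to 0.129), any of the 6 for Dpysl2 (adjusted p up to 0.14), and obese 1 or obese 3 for Tpm2 (adjusted p up to 0.0606).

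Immediate early and heat shock genes, which respond within minutes to stress and handling, had 2 of 24 lower and 0 higher (median −0.19). Over all genes 3.15% were lower. The list had a summed signal of 36470 to 42460 in obese and 40050 to 71770 in lean rats. Fos had signals of 348, 197 and 201 in obese rats, against 4666, 2762 and 416 in lean rats (log2 −2.79, SE 0.88, adjusted p = 0.1), so lean 1 and lean 2 were far above lean 3 and all obese rats, and it passed without lean 3 (adjusted p = 0.0168). Zfp36, which speeds the decay of inflammatory RNAs, had signals of 1111, 1270.1 and 1210.4 in obese rats, against 4523, 2362 and 2252 in lean rats (log2 −1.26, SE 0.28, adjusted p = 0.0248). The mitochondrial chaperone Hspd1 was lower (log2 −0.45, SE 0.10, adjusted p = 0.0243). The clock genes Dbp and Per2 overlapped between the groups (log2 difference 0.27 and 0.14, adjusted p = 0.728 and 0.778). Not every call stood: calls were lost without obese 1, obese 2, obese 3 or lean 1 for Zfp36 (adjusted p up to 0.0851), and obese 1, obese 2, obese 3, lean 1 or lean 2 for Hspd1 (adjusted p up to 0.0872).

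Other genes stood apart without belonging to a list described so far. Wtap, a subunit of the RNA methylation complex, had the smallest adjusted p of the genes named here. The signal of Wtap was 3524, 3749.9 and 3603 in obese rats, against 637, 542 and 467 in lean rats. It was much higher in obese rats (log2 2.70, SE 0.11, adjusted p = 1.59e-08), with 2.68 on control diet, but a second probe set gave 0.24 (adjusted p = 0.354), so the probe sets of Wtap did not give 1 answer. Gtpbp4, a GTPase of ribosome assembly, had signals of 3232, 3022 and 3155 in obese rats, against 12143, 13833 and 10959 in lean rats (log2 −1.96, SE 0.13, adjusted p = 2.98e-06). F2, prothrombin, had signals of 144, 192 and 148 in obese rats, against 660.2, 618 and 697 in lean rats (log2 −1.94, SE 0.19, adjusted p = 0.00011). Poteml2 had signals of 354, 476 and 750.4 in obese rats, against 3075, 1868 and 2697 in lean rats (log2 −2.27, SE 0.36, adjusted p = 0.00376), and on control diet the difference was −0.72. In each of these 4 genes the groups were separated by a wide gap.

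Of the further genes higher in obese kidneys, Matn1, matrilin of cartilage matrix, had signals of 2917, 2574 and 2524 in obese rats, against 614, 905 and 433 in lean rats (log2 2.07, SE 0.21, adjusted p = 0.000118). Adh1c, an alcohol dehydrogenase, had signals of 2642, 2319 and 1957 in obese rats, against 773, 584 and 724 in lean rats (log2 1.71, SE 0.19, adjusted p = 0.000253). Serpina3n, a protease inhibitor of the acute phase, had signals of 311, 370.3 and 416 in obese rats, against 89.7, 82.5 and 128 in lean rats (log2 1.73, SE 0.24, adjusted p = 0.00154, at least 2.9-fold higher). Each of these was also higher on control diet, by 1.24, 1.68 and 1.18. Cdc25b, a phosphatase that starts mitosis, had signals of 245, 297 and 196 in obese rats, against 49.4, 89.6 and 26.7 in lean rats (log2 1.96, SE 0.33, adjusted p = 0.00376, at least 1.96-fold higher). It was 1 of 2 cell cycle genes of 30 that passed, where 6.02% of all genes did. The other was Kif11, a spindle motor, which was lower (log2 −0.54, SE 0.14, adjusted p = 0.0421), with a second probe set at 0.15 (adjusted p = 0.888). Nrxn2, a neurexin, had signals of 206, 179.5 and 205 in obese rats, against 45.6, 42.2 and 100.3 in lean rats (log2 1.51, SE 0.26, adjusted p = 0.0052, at least 1.59-fold higher), with −0.11 on control diet. Kng2l1, a kininogen gene, was higher (log2 1.50, SE 0.32, adjusted p = 0.0162, at least 1.52-fold higher). With signals under the background bound counted at that bound, the calls of Nrxn2 and Kng2l1 were both lost. Plcb3, a phospholipase C, was higher (log2 1.96, SE 0.49, adjusted p = 0.0377, at least 2.87-fold higher), and so was Gtf3c5 (log2 1.74, SE 0.38, adjusted p = 0.0193, at least 2.06-fold higher), a subunit of an RNA polymerase III factor. Among single omissions, calls ended without obese 1, obese 2, lean 1, lean 2 or lean 3 for Kif11 (adjusted p up to 0.154), obese 3 for Kng2l1 (adjusted p = 0.0748), and obese 1, obese 2, obese 3, lean 2 or lean 3 for Plcb3 (adjusted p up to 0.116). With arrays left out 1 at a time, calls ended without obese 1, obese 2, obese 3, lean 1 or lean 3 for Gtf3c5 (adjusted p up to 0.0746).

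**Figure D5:**
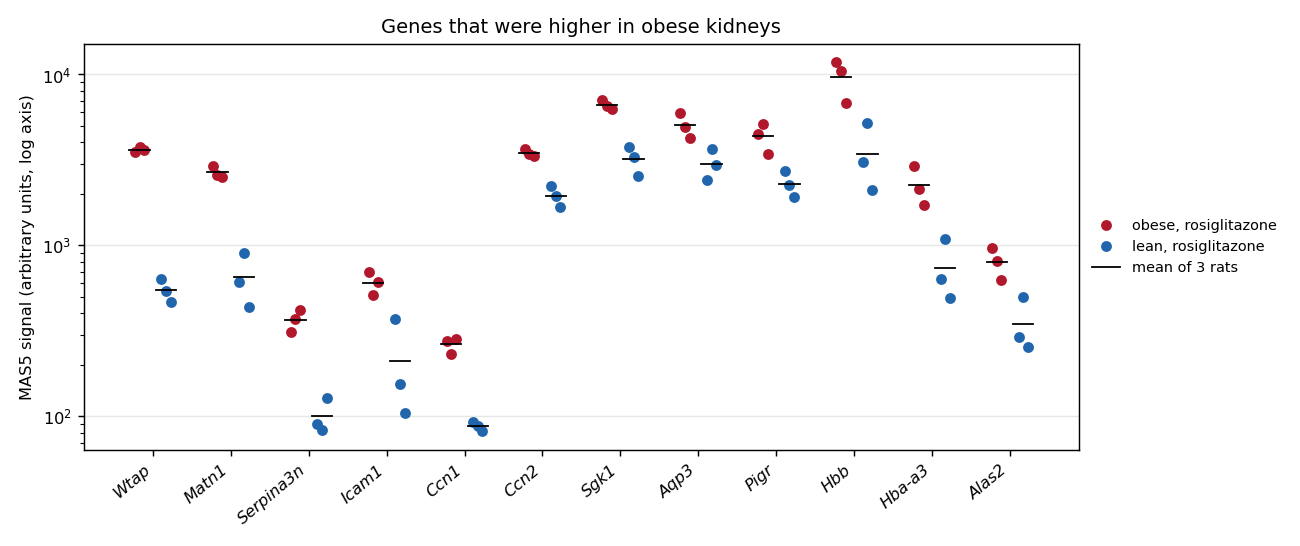
MAS5 signals (log axis) of 12 genes that were higher in obese kidneys on rosiglitazone; each point is 1 rat and each bar a mean of 3. Obese points lie above lean points for every gene, by most for Wtap and by least for Aqp3.

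Lepr, the mutated receptor gene, had signals of 213, 169.8 and 210.2 in obese rats, against 172, 165 and 156 in lean rats (log2 0.24, SE 0.26, adjusted p = 0.667), and obese and lean signals overlapped. The stretch of chromosome around Lepr is inherited together with the mutation. Of the 50 protein coding genes nearest to it in gene order, 25 on each side, 20 were tested, 1 was higher and 1 was lower, or 10%, against 6.02% of all genes. The higher one was Plpp3, a lipid phosphatase, 21 genes away (log2 difference 0.69, SE 0.12, adjusted p = 0.00521, and 0.19 on control diet). The lower one was Dnajc6, an auxilin that uncoats vesicles, 2 genes away (−0.58, SE 0.14, adjusted p = 0.0279, and −0.42 on control diet). Leprot, which shares its start with Lepr, was at 0.38 (SE 0.11) and did not pass (adjusted p = 0.0665), and Jak1, the kinase through which the leptin receptor signals, was at −0.06 (adjusted p = 0.80). When arrays were left out singly, calls were lost without obese 1, obese 2, lean 1, lean 2 or lean 3 for Dnajc6 (adjusted p up to 0.106).

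The remaining lists had at most 1 member past the test each. The thick ascending limb had 0 of 13 past limma's test (4 at an unadjusted p under 0.05), with Umod at −0.29 (adjusted p = 0.103) and at 0.13 after quantile normalization (adjusted p = 0.108). Intercalated cells had 0 of 12 (2), the circadian clock 0 of 17 (4) and the unfolded protein response 0 of 25 (5), with the count at an unadjusted p under 0.05 in brackets for each. Over all tested probe sets 3677 of 18625 were under that unadjusted p, so such counts alone do not set a list apart. Eicosanoid metabolism had 1 of 21 lower (Cyp4f1, log2 −0.52, SE 0.13, adjusted p = 0.0377), and the urothelium 1 of 10, Krt19, beside 3.15% of all genes. Adrenal cortex and skeletal muscle had 4 and 3 tested genes, with 0 past limma's test (0 and 0 at an unadjusted p under 0.05), and their defining markers Cyp11b1, Star, Ckm and Acta1 lay below the filter. Rbp7, a retinol binding protein and PPARgamma target, overlapped, with signals of 326, 185 and 246 in obese rats, against 566, 449 and 308 in lean rats (log2 −0.76, SE 0.33, adjusted p = 0.212). Calls were lost without obese 1, obese 2, obese 3, lean 1 or lean 3 for Cyp4f1 (adjusted p up to 0.137).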

How the data were processed

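Kidney RNA of 12 rats had been hybridized to Affymetrix expression arrays, 1 per rat. The deposited values are linear signal intensities that the authors computed with MAS5, per the submitters' processing notes, which give no version. They were used as deposited. The sources used here give neither the scaling target nor later steps.

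Of 31099 probe sets, 57 controls were left out. Of the rest, 20826 carried 1 gene symbol, 436 several and 9780 none here, and 20758 of them had a gene ID in the RefSeq gene table (GRCr8). Signals were set on the log2 scale after adding 16, and probe sets under the 40th percentile of the mean over 12 arrays were left out. All 12 arrays entered 1 limma fit with 4 group means (limma 3.58.1, statmod 1.5.0, R 4.3.3, moderation with trend and robust, 8 residual degrees of freedom), with Benjamini-Hochberg adjustment over 18625 probe sets. The fit was first tried on simulated data with independent noise. These held no cre class and no array that stood apart, so they say nothing about the part of either. The p-values measure only the spread between these arrays, whose number limits the precision.

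A gene is described by its brightest probe set. Named genes are the 14 highest and 14 lowest called genes whose groups do not overlap, up to 4 called genes of smallest p per list, and a fixed set of looked-up genes. The remaining called members of a list, and genes said to be so, were named after their values were seen. The members, lists and alternatives were chosen with earlier results of these data known. The background bound, 124, was set after the data were seen. Rxra lay below the filter.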

Additional observations from a re-analysis of the deposited data

How the results depend on the processing

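The 20 alternatives changed the offset, filter, scaling, moderation, covariates and arrays, and 2 of them (counting signals under the background bound at that bound, and leaving out lean 3 of both diets) were chosen after seeing the data. Of the 116 genes named above as higher or lower, 33 kept their call under every alternative that gave a value and 83 lost it in at least 1. The direction of 1 gene, Kap, reversed, with 0.014 after quantile normalization. The call was lost after quantile normalization by 25 genes (Acy1, Atp1b1, Bckdhb, Cp, Cyp4f1, Dpysl2, Ech1, Elovl1, Eng, Fah, Gclc, Kap, Ndufv2, Prdx6, RT1-Bb, RT1-CE10, Slc22a2, Slc27a2, Slc34a1, Slc3a1, Sod1, Srxn1, Tff3, Timp1 and Tnfrsf1a). It was lost by 56 with each array centred on its median, 45 without trend and robust, 34 with the cre class as a covariate and 62 within its lower class. Centring each array on its median left 493 probe sets (254 higher, 239 lower, 207 of them also called on control diet), and moderation without trend and robust left 589 (291 higher, 298 lower, 238 also on control diet). The 6 rosiglitazone arrays alone gave 279 higher. The lower cre class alone gave 533 (166 lower, 78 also on control diet), where the 1 lean array on the drug takes its spread from the others. Without 1 array, 474 to 809 probe sets passed, 190 to 334 higher and 256 to 478 lower, and 264 to 407 also passed on control diet. Without lean 3 of both diets 1016 passed (404 higher, 612 lower, 508 also on control diet). The difference between diets, with 0 calls, had 1 with the filter at the 60th percentile, 1 with signals counted at the background bound, 1 after quantile normalization, 3 with the cre class as a covariate and 6 within its lower class. The cause was not tested. With the replicate number as a block 1002 probe sets passed, 863 of them among the 932. The deviations of same-numbered obese and lean arrays on rosiglitazone from their group means had r of −0.12, 0.042 and 0.081. The arrays on control diet did not enter these correlations, so whether the replicate numbers mark a shared batch was not tested. Dim probe sets near the background bound limit the folds given as at least.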

Other observations

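Some large differences lay in probe sets outside the naming rule, because a brighter probe set of the same gene exists or because no gene name is given here. The 4 furthest out in each direction were looked at after their values were seen. RT1-Db1, a class II histocompatibility gene, had signals of 649, 546 and 519.5 in obese rats, against 73.9, 81.8 and 83.8 in lean rats (log2 2.61, SE 0.25, adjusted p = 7.23e-05, at least 4.6-fold higher), and on control diet it was at least 6.54-fold higher. Its brighter probe set did not pass (log2 0.69, adjusted p = 0.150). A dimmer probe set of Nt5dc1, a nucleotidase domain gene, had signals of 583, 543 and 596 in obese rats, against 77.3, 80.8 and 189 in lean rats (log2 2.26, SE 0.24, adjusted p = 0.000181, at least 4.03-fold higher), while the brighter one gave 0.38 (adjusted p = 0.159). For Fubp3, which binds single-stranded DNA and RNA, the dimmer probe set was higher (log2 2.21, SE 0.26, adjusted p = 0.000364) and the brighter one gave −0.33 (adjusted p = 0.0678). A second probe set of Gtpbp4 was lower like the first (log2 −3.04, SE 0.20, adjusted p = 4.47e-06).

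One probe set without a gene name here had signals of 85.8, 54.3 and 53.8 in obese rats, against 2685, 3053 and 4131 in lean rats (log2 −5.36, SE 0.26, adjusted p = 8.48e-08). Its obese mean lay under the background bound of 124 on both diets, and it was at least 26.2-fold lower on the drug and at least 29.4-fold lower on control diet. Among the other unnamed probe sets, one was higher by 2.83 (adjusted p = 4.22e-05) and one was lower, at −2.38 (adjusted p = 3.86e-06). RT1-Ba had 1 probe set that was lower (log2 −3.02, SE 0.63, adjusted p = 0.0164, at least 3.56-fold lower), a call lost without obese 2, obese 3, lean 1 or lean 3 (adjusted p up to 0.075), and 3 others that did not pass. Except for RT1-Ba, these calls held without any 1 of the 6 arrays.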
